A study of Homo sapiens with 6 samples.

Results

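The insulin-like growth factor (IGF) ligands, receptors and binding proteins were followed upon depletion of MSI1 in glioblastoma-derived cells. The 10 genes were taken by symbol from the deposited expression table of 58174 genes: the ligands IGF1 and IGF2, the receptors IGF1R and IGF2R, and the binding proteins IGFBP2 to IGFBP7. All 10 were found, each under 1 gene identifier. The cells were KNS42, an established line derived from a pediatric glioblastoma (GBM) and grown adherently in medium with fetal bovine serum. They were transfected with siRNAs against MSI1 (siMSI1, n = 3) or with a control siRNA (siC, n = 3) and harvested 72 h later, and the polyadenylated RNA was sequenced. By the labels the groups differed only in the siRNA, the line is a single cell line, and serum is itself a source of IGFs and of their binding proteins.

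IGF1 and IGF2 bind IGF1R, a receptor tyrosine kinase that signals through the PI3K-AKT and RAS-ERK arms. IGF2R has no kinase domain. It takes IGF2 to the lysosome and sorts lysosomal enzymes that carry mannose 6-phosphate. The IGFBPs are secreted proteins that hold the ligands outside the cell, and proteases release the ligand by cutting them. MSI1 (Musashi1) is an RNA-binding protein of neural progenitors that recognizes short UAG-containing words, mostly in 3′UTRs.

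Upon MSI1 knockdown, the mRNAs of IGFBP6, IGFBP5, IGFBP2 and IGF1R rose, the largest change being a 2.07-fold higher mean level of IGFBP6. IGF2R and IGFBP7 had higher values in each siMSI1 library without passing the test. Neither ligand was expressed above 0.423 FPKM in any library. Values are FPKM as deposited, that is, reads per kilobase of gene, scaled to a size of each library. The changes are log2 fold changes of FPKM + 0.1 tested with limma. A change was called at a Benjamini-Hochberg adjusted p of at most 0.01 over the 15069 genes that averaged 0.5 FPKM or more, of which 11.0% were called, 5.15% higher and 5.83% lower in siMSI1, and for 21.4% of which the siMSI1 values lay above all siC values. In a bulk library, more cells with an mRNA and more of the mRNA per cell cannot be told apart.

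The regions just upstream of the start sites of the 4 called genes, each higher in siMSI1, are shown. They are from RefSeq (GRCh38.p14, 250 bases before the start, 5′ to 3′ on the gene's strand). Any part of these regions in the changes was not tested. Capitals mark GC boxes, searched as GGGCGG on either strand. For IGF1R the region is chr15:98648289-98648538 on the plus strand, for IGFBP2 it is chr2:216633170-216633419 on the plus strand, for IGFBP5 chr2:216695550-216695799 on the minus strand and for IGFBP6 chr12:53097417-53097666 on the plus strand. Of 3 RefSeq starts of IGFBP2, the start of its canonical transcript was used. The IGFBP2 region lies inside the annotated span of its gene, as does most of the IGFBP6 region.
IGF1R: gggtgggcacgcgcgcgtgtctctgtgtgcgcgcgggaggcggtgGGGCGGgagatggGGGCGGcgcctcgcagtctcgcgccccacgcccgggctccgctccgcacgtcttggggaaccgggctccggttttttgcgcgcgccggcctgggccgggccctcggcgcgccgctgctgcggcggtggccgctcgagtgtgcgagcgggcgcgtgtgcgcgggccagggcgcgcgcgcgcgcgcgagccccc
IGFBP2: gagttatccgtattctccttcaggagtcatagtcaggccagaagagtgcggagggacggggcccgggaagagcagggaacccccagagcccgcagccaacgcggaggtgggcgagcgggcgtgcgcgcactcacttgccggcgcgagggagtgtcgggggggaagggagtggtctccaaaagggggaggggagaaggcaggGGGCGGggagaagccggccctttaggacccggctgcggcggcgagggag
IGFBP5: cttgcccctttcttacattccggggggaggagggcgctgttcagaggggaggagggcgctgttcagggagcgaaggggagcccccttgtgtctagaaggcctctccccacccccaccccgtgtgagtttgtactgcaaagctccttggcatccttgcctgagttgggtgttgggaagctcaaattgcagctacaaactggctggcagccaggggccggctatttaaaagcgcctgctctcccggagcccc
IGFBP6: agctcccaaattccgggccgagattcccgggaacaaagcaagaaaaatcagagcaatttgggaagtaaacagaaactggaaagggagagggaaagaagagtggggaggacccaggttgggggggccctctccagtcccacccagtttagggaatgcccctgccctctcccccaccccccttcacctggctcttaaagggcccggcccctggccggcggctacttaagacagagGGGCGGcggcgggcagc
The IGF1R region held 2 GC boxes, those of IGFBP2 and IGFBP6 held 1 each, and that of IGFBP5 held 0. Of 35116 promoters of the same length, 42.6% held this motif. The TATA box TATAAA (10.7% of promoters) and the E-box CACGTG (6.34%), both also searched on either strand, had no match in the 4 regions. GC content was 81.2% in the IGF1R region, 69.2% in that of IGFBP2 and 61.2% in those of IGFBP5 and IGFBP6. Among the members that were not called, the window of IGF2R held 6 GC boxes and 3 E-boxes, with some of the GC boxes overlapping, and that of IGFBP4 held 1 GC box and 1 TATA box, while that of IGFBP3 held 2 GC boxes and that of IGF1 (GC content 39.6%, at a RefSeq start 1184 bases from the canonical one) held 0 of the 3 motifs. The windows of IGF2 and IGFBP7 were not analysed here.

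Since the study asked how MSI1 acts on mRNAs through 3′UTRs and miRNAs, the 3′UTRs of the canonical transcripts (GENCODE release 44) were searched for 6 MSI1 words, GUAGU and AUAGU and their forms with 1 or 2 further U before the final AGU, on the mRNA strand. They were also searched for sites that pair with the seed (bases 2 to 8, in capitals) of 3 miRNAs. miR-143-3p and miR-27b-3p were followed by the study, and let-7a-5p belongs to a family known for sites in IGF pathway mRNAs. The miRNA sequences are those of RefSeq.
hsa-let-7a-5p: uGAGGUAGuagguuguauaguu
hsa-miR-143-3p: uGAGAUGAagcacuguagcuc
hsa-miR-27b-3p: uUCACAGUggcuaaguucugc
Of the 2 called genes with long 3′UTRs, IGF1R (7088 bases) held 5 MSI1 words and 2 let-7a-5p sites, and IGFBP5 (4646 bases) held 7 MSI1 words and 1 miR-143-3p site. The other called genes, IGFBP2 (332 bases) and IGFBP6 (173 bases), held 0 of the words and 0 of the sites. The first word of IGF1R and of IGFBP5 is shown with its flanks, followed by the 3 miRNA sites, with the word or the seed match in capitals.
IGF1R, MSI1 word: cacuaacaguGUAGUgcccaucaua
IGFBP5, MSI1 word: aggacuccauAUAGUcauauauagg
IGF1R, let-7a-5p site 1: aaacauuuauCUACCUCacucuuauuu
IGF1R, let-7a-5p site 2: cagaguuuguCUACCUCuggguauccc
IGFBP5, miR-143-3p site: gccacucauuUCAUCUCauuuaaggga
On GRCh38 these stretches lie at chr15:98961356-98961380, chr2:216675770-216675794, chr15:98960051-98960077, chr15:98964093-98964119 and chr2:216676644-216676670, the IGF1R stretches on the plus strand and the IGFBP5 stretches on the minus strand. An MSI1 word was found in the 3′UTRs of 71.31% of 11270 tested genes (median length 1356 bases), a let-7a-5p site in 11.15%, a miR-143-3p site in 14.31% and a miR-27b-3p site in 18.33%. No member held a miR-27b-3p site. Among the members that were not called, the words numbered 10 in IGF1, 6 in IGFBP3, 5 in IGF2R, 3 in IGFBP7 and 0 in IGF2 and IGFBP4. These members held a let-7a-5p site in IGF1 and in IGF2R, 1 each, and a miR-143-3p site in IGF2R and in IGFBP3, 1 each. Words and sites were present both in called members and in members that were not called. IGFBP6, the member with the largest change, held 0 of them in a 3′UTR of 173 bases, where the median was 1356 bases. Any part of words or sites in the changes was not tested. A match of these letters is not a measured binding site, and MSI1 or miRNA binding was not analysed here.

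Whole read counts were recovered from FPKM and gene length. The libraries held 14448513 to 18024080 reads on genes in siC, compared with 13087025 to 14700593 in siMSI1. MSI1 was at 63.7, 61.9 and 66.9 FPKM in the siC libraries, against 12.1, 12.3 and 11.2 FPKM in siMSI1, with a log2 fold change of −2.43 (adjusted p = 8.7e-06, limma). Of 10 markers of glioblastoma and neural progenitor cells, S100B and OLIG2 were at 0 in all libraries. The list, which includes the siRNA target MSI1, summed to 1569 to 1635 FPKM in siC, compared with 1261 to 1362 FPKM in siMSI1. Most of this sum was VIM (means of 1035 FPKM in siC and 865 FPKM in siMSI1) and SOX2 (301 and 257 FPKM), neither of them called. Of 8 tested markers, 1 was called higher (GFAP, log2 fold change 1.46) and 3 lower (FABP7, CD44 and the target MSI1 itself). Of all tested genes, 5.15% were called higher and 5.83% lower. Of 17 markers of other cell types, 14 were below the filter, AIF1 and RBFOX3 were at 0, and the sum was 30.1 to 33.2 FPKM in siC, compared with 25.2 to 29.4 FPKM in siMSI1. Most of this sum was the epithelial marker KRT18, at means of 23.1 FPKM in siC and 19.4 FPKM in siMSI1. None of the 3 that were tested was called by limma or by its variant voom on the recovered reads, and 1 was lower at an unadjusted p under 0.05 (2908 of all 15069 tested genes were). Among those below the filter, all siMSI1 values lay above all siC values for PECAM1 (1, 1 and 0 reads in siC, 8, 7 and 5 in siMSI1) and CDH5 (2, 3 and 0 reads in siC, 9, 11 and 22 in siMSI1), both endothelial, and for PDGFRB of mural cells (7, 16 and 10 reads in siC, 14, 33 and 24 in siMSI1, in FPKM 0.0655 to 0.124 against 0.133 to 0.353). VWF, also endothelial, went the other way, at means of 0.187 FPKM in siC and 0.120 FPKM in siMSI1. It had 36, 37 and 20 reads in siC and 18, 14 and 21 in siMSI1, and its FPKM values overlapped between the groups. SNAP25 of neurons was lower in all siMSI1 libraries, with 15, 20 and 11 reads in siC and 6, 4 and 10 in siMSI1. Of all 15069 tested genes, the siMSI1 values lay above all siC values for 3222 (21.4%) and below them for 3234. The part of these markers in the changes below was not tested. Nothing states that the replicates came from separate cultures, so the p-values measure the spread between these samples, which may be technical.

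The ligands were at the lower end of detection. IGF2 (ENSG00000167244, chr11:2129112-2158391 on GRCh38), a growth factor of fetal tissues, was at 0.352, 0.221 and 0.0777 FPKM in the siC libraries, against 0.119, 0.268 and 0.423 FPKM in siMSI1, which rests on 7 to 38 reads per library. The groups overlapped, and the libraries of each group spread more than the group means differed (exact permutation test on log2(FPKM + 0.1), two-sided p = 0.6, where 0.1 is the smallest p that 3 against 3 libraries can give). IGF1 (ENSG00000017427, chr12:102395874-102481744), the ligand that growth hormone induces in liver, had 0, 3 and 0 reads in siC and 1, 2 and 1 reads in siMSI1. Each value was at or under the floor of 3 reads, which stands for 0.0205 to 0.0283 FPKM of this gene, so that no fold change is given and any difference was not detectable at this depth. Such floors cover counting error only.

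IGF1R (ENSG00000140443, chr15:98648539-98964530), the signalling receptor of both ligands, was at 5.50, 5.41 and 5.22 FPKM in the siC libraries, against 7.85, 7.43 and 8.0 FPKM in siMSI1, with 1015 to 1564 reads per library. The lowest siMSI1 library was above the highest siC library. The log2 fold change was 0.52 (SE 0.074, 95% confidence interval 0.35 to 0.69, adjusted p = 0.0025 from limma), a 1.44-fold higher mean. The call was lost in 4 of 6 omissions of a library: the adjusted p was 0.0153 without siC replicate 1, 0.0106 without siC replicate 2, 0.0114 without siC replicate 3 and 0.0133 without siMSI1 replicate 1 (limma), with log2 fold changes from 0.50 to 0.55 over all omissions. Of the 5 annotated genes within IGF1R, AC069029.1 on the opposite strand had 0.441 FPKM in siC, compared with 0.0860 FPKM in siMSI1, below the filter, the group means of AC118658.2 and MIR4714 were at most 0.239 FPKM, AC036108.1 was at 0, and 1 further lncRNA was not analysed here.

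IGF2R (ENSG00000197081, chr6:159969082-160113507), the mannose 6-phosphate receptor that clears IGF2, was the more abundant receptor, at 23.2, 20.9 and 21.2 FPKM in the siC libraries, against 26.8, 25.0 and 28.3 FPKM in siMSI1. Its siMSI1 libraries also lay above its siC libraries, but the log2 fold change of 0.29 (SE 0.075, 95% confidence interval 0.12 to 0.47) did not pass the test (adjusted p = 0.0259, limma). It passed with voom on the recovered reads (adjusted p = 0.0049). The ratio of IGF2R to IGF1R in FPKM was 3.87 to 4.23 in siC, compared with 3.37 to 3.53 in siMSI1, without overlap. The antisense RNA AIRN, which overlaps IGF2R, was at 0 in siC and at a mean of 0.0053 FPKM in siMSI1, and the pseudogene AL353625.1 within IGF2R showed a log2 fold change of 0.19 (adjusted p = 0.635, limma).

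**Figure D1:**
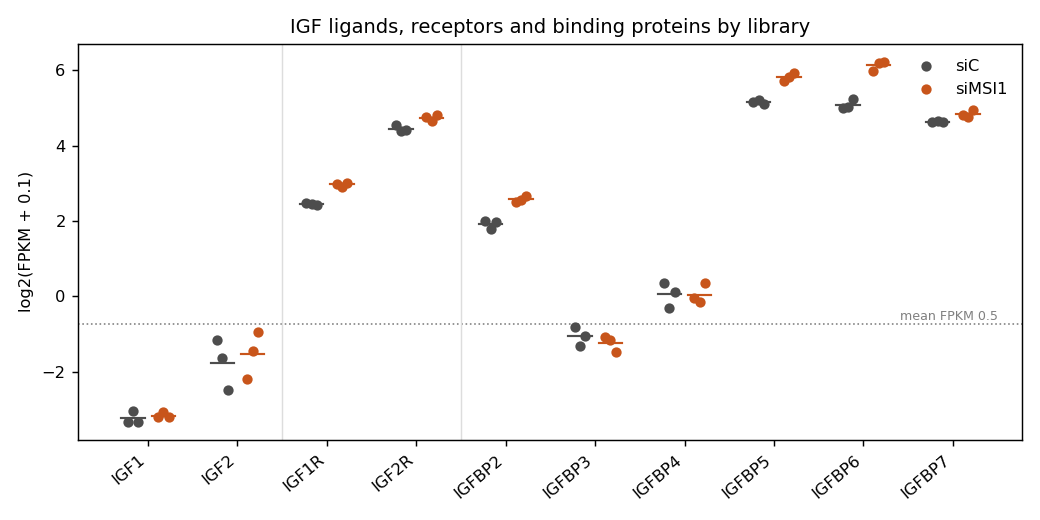
Levels of the 10 members in each library as log2(FPKM + 0.1), with ligands, receptors and binding proteins separated by grey lines, points for libraries and bars for the mean of the log2 values. The siMSI1 points of IGF1R, IGF2R, IGFBP2, IGFBP5, IGFBP6 and IGFBP7 lie above all siC points, and IGF1, IGF2 and IGFBP3 lie below the dotted line at the level of the filter, a mean FPKM of 0.5, in all libraries.

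Of the 6 binding proteins, IGFBP6 (ENSG00000167779, chr12:53097436-53102345), which binds IGF2 in preference to IGF1, changed most. It was at 31.9, 32.3 and 37.6 FPKM in the siC libraries, against 62.5, 73.5 and 74.5 FPKM in siMSI1 (612 to 1368 reads per library). The groups did not overlap, and the lowest siMSI1 value was far above the highest siC value relative to the SDs of 3.15 FPKM (siC) and 6.62 FPKM (siMSI1). The log2 fold change was 1.05 (SE 0.096, 95% confidence interval 0.82 to 1.27, adjusted p = 0.00052 from limma). Of the 15069 tested genes, 290 had a larger rise. No annotated gene overlaps IGFBP6.

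IGFBP5 (ENSG00000115461, chr2:216672105-216695549), which also binds to extracellular matrix, was at 35.5, 36.7 and 34.4 FPKM in the siC libraries, against 52.3, 56.0 and 60.7 FPKM in siMSI1, with 3185 to 5618 reads per library. Again all siMSI1 libraries were above all siC libraries. Its log2 fold change was 0.66 (SE 0.073, 95% confidence interval 0.49 to 0.83, adjusted p = 0.00098 from limma), and 869 tested genes had a larger rise. IGFBP6 and IGFBP5 were called under all 16 alternatives run, with adjusted p-values from 2.5e-06 to 0.0044 for IGFBP6 and from 7.5e-06 to 0.0080 for IGFBP5 (limma). These alternatives include the threshold of 0.05, at which a call made at 0.01 cannot be lost. DIRC3.AS1 overlaps IGFBP5 on the opposite strand and was at 0 in siC and at a mean of 0.0457 FPKM in siMSI1.

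IGFBP2 (ENSG00000115457, chr2:216632828-216664436), a binding protein of fetal brain and of gliomas, lies on chromosome 2 next to IGFBP5. These neighbours are transcribed towards each other, with 7668 bases and 0 annotated genes between them. IGFBP2 was lower in level, at 3.89, 3.36 and 3.81 FPKM in the siC libraries, against 5.55, 5.79 and 6.24 FPKM in siMSI1 (261 to 427 reads per library). The groups did not overlap, and the 1.59-fold ratio of means was also that of IGFBP5. The log2 fold change was 0.66 (SE 0.095, 95% confidence interval 0.43 to 0.88, adjusted p = 0.0028 from limma). The call was lost in 3 of 6 omissions: the adjusted p was 0.0121 without siC replicate 1, 0.0104 without siC replicate 2 and 0.0117 without siMSI1 replicate 2 (limma), with log2 fold changes from 0.59 to 0.69 over all omissions.

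IGFBP7 (ENSG00000163453, chr4:57030773-57110385), a related protein with low affinity for IGFs, was at 24.6, 25.1 and 24.5 FPKM in the siC libraries, against 27.8, 27.2 and 30.7 FPKM in siMSI1. The libraries did not overlap between the groups, but the log2 fold change of 0.21 (SE 0.068, 95% confidence interval 0.048 to 0.36) did not pass the test (adjusted p = 0.0615, limma) and passed it in none of the 16 alternatives. IGFBP7.AS1 on the opposite strand was at means of 1.02 FPKM in siC, compared with 1.24 FPKM in siMSI1 (log2 fold change 0.26, adjusted p = 0.264, limma), and POLR2B, which also overlaps IGFBP7 on the opposite strand, showed a log2 fold change of 0.031 (adjusted p = 0.856, limma). The library kit kept the strand, but whether the counting used it is not given in the sources used here, so reads of such partners may be shared.

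IGFBP4 (ENSG00000141753, chr17:40443450-40457725), the binding protein that the protease PAPPA cuts, was at 1.18, 0.704 and 0.979 FPKM in the siC libraries, against 0.863, 0.797 and 1.17 FPKM in siMSI1, on 23 to 39 reads. The groups overlapped, and the log2 fold change of −0.0061 had a 95% confidence interval from −0.58 to 0.57 (adjusted p = 0.988, limma), so that a change of the size seen for IGFBP6 lies outside the interval. IGFBP3 (ENSG00000146674, chr7:45912245-45921874), the main carrier of IGFs in serum, was at 0.467, 0.302 and 0.380 FPKM in the siC libraries, against 0.371, 0.350 and 0.259 FPKM in siMSI1, on 17 to 32 reads. Its values overlapped as well (exact permutation test, two-sided p = 0.4), and it was below the filter.

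Together, 7 of the 10 members were tested, each of them at 0.704 FPKM or more in every library, and IGF1, IGF2 and IGFBP3 were below the filter. Of the 7, limma called 4, each higher in siMSI1, and 0 lower. Over all 15069 tested genes 11.0% were called, 5.15% higher and 5.83% lower. At an unadjusted p under 0.05, 6 members were higher and 0 lower (38.3% of all tested genes passed this, 2857 higher and 2908 lower), and voom called 5 (17.8% of all tested genes). The siMSI1 values lay above all siC values for 6 of the 7 members (IGF1R, IGF2R, IGFBP2, IGFBP5, IGFBP6 and IGFBP7), which was the case for 21.4% of all tested genes. The median log2 fold change of the 7 members was 0.52, while that of all tested genes was 1.46e-05. Without siC replicate 1, and also without siC replicate 2, the number of called members was 2, and it was 3 or 4 when any other library was left out.

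**Figure D2:**
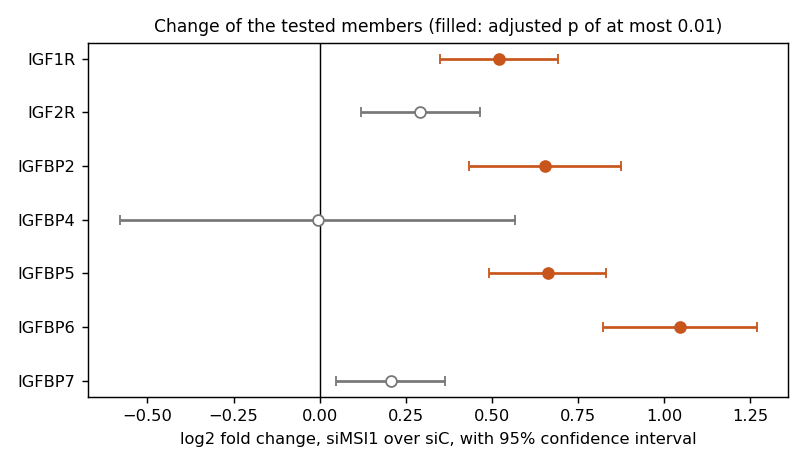
Log2 fold changes of siMSI1 over siC for the 7 tested members, with 95% confidence intervals from limma and filled points for an adjusted p of at most 0.01. IGFBP6 is highest at 1.05, IGFBP2 and IGFBP5 both stand at 0.66, and the interval of IGFBP4 spans 0.

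In the order of FPKM levels, which are per length, IGFBP5 (35.5 ± 1.17, SD, n = 3) and IGFBP6 (33.9 ± 3.15) led in siC and did not differ beyond their spread. They were followed by IGFBP7 (24.7 ± 0.329), IGF2R (21.8 ± 1.27), IGF1R (5.38 ± 0.141), IGFBP2 (3.69 ± 0.284), IGFBP4 (0.955 ± 0.241), IGFBP3 (0.383 ± 0.0825), IGF2 (0.217 ± 0.137) and IGF1, and of these neighbours only IGFBP3 and IGF2 overlapped in their library values. In siMSI1, IGFBP6 (70.2 ± 6.62 FPKM) was first, and all of its libraries were above those of IGFBP5 (56.3 ± 4.23 FPKM). IGFBP7 (28.6 ± 1.88 FPKM) and IGF2R (26.7 ± 1.63 FPKM) overlapped in siMSI1, and the order of the members after them was that of siC.

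The summed level of the 6 IGFBPs was 97.5, 98.5 and 102 FPKM in siC and 149, 164 and 174 FPKM in siMSI1. IGFBP6, IGFBP5 and IGFBP7 made up most of this sum in every library. The share of IGFBP6 was 32.8% to 37.0% in siC, compared with 41.9% to 44.9% in siMSI1, and that of IGFBP7 was 24.1% to 25.5% in siC, compared with 16.6% to 18.6% in siMSI1. The share of IGFBP5 overlapped between the groups, at 33.8% to 37.3% in siC, compared with 34.2% to 35.0% in siMSI1. The ratio of IGFBP6 to IGFBP5 lay between 0.879 and 1.09 in siC and between 1.2 and 1.31 in siMSI1. With 3 libraries per group, an exact permutation test of these shares and ratios cannot go below p = 0.1.

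**Figure D3:**
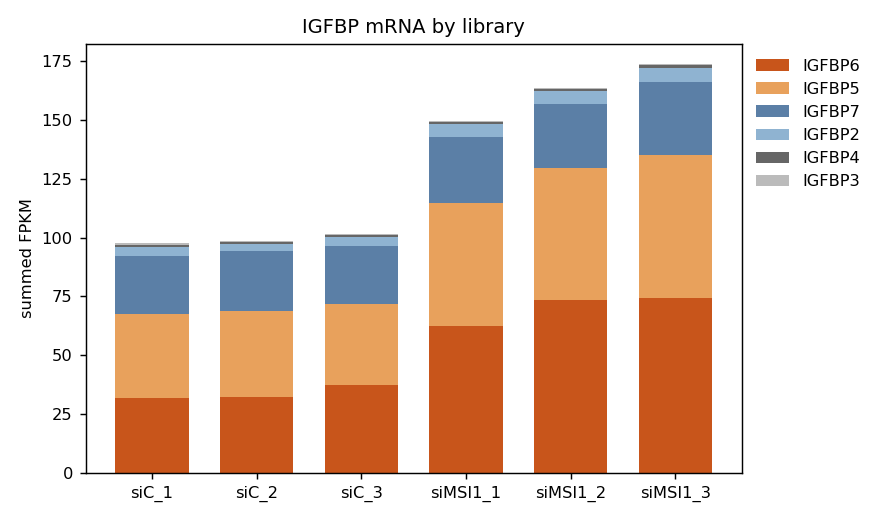
Summed FPKM of IGFBP2 to IGFBP7 in each library, stacked by gene. The bars reach 97.5 to 102 FPKM in siC, compared with 149 to 174 FPKM in siMSI1, with the largest added height in IGFBP6 and IGFBP5.

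Of 7 other genes of the IGF family, 3 passed the filter. INSR, the insulin receptor, which can pair with IGF1R in hybrid receptors, was at 0.996, 0.799 and 0.758 FPKM in the siC libraries, against 0.740, 0.489 and 0.760 FPKM in siMSI1. Its groups overlapped (log2 fold change −0.33, SE 0.254, adjusted p = 0.385, limma), and the ratio of IGF1R to INSR was 5.52 to 6.89 in siC, compared with 10.5 to 15.2 in siMSI1. IGFBPL1, an IGFBP-like gene of developing neural tissue, was at 1.04, 1.16 and 1.46 FPKM in the siC libraries, against 0.497, 0.349 and 0.446 FPKM in siMSI1, on 5 to 23 reads. It was lower in each siMSI1 library and was called (log2 fold change −1.31, SE 0.246, adjusted p = 0.0080, limma), but the call was lost in each of the 6 omissions of a library, at adjusted p-values from 0.0138 to 0.0388, and with voom (0.0139). IGFBP1, a binding protein of liver, had 0 to 2 reads per library, and IGFALS, which forms the serum complex with IGFBP3, had 0 to 1 reads. KAZALD1 was the third gene of this list that passed the filter, with a log2 fold change of 0.32 (adjusted p = 0.0489, limma).

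Of 17 proteases that cut IGFBPs and inhibitors of such proteases, 10 were tested and limma called 0. At an unadjusted p under 0.05, 6 were higher and 0 lower, beside 2857 higher and 2908 lower of all tested genes (38.3%), and voom called 4 (17.8% of all tested genes). The siMSI1 values lay above all siC values for 7 of the 10, beside 21.4% of all tested genes, and the median log2 fold change was 0.35. The following genes were named after their values were seen. HTRA1, a secreted serine protease, was at 203, 178 and 198 FPKM in the siC libraries, against 241, 226 and 278 FPKM in siMSI1 (log2 fold change 0.36, adjusted p = 0.0280, limma). TIMP1, an inhibitor of metalloproteinases, showed a log2 fold change of 0.39 (adjusted p = 0.0393, limma). PAPPA, the protease of IGFBP4, was at 0.342 to 0.482 FPKM in siC, compared with 0.668 to 0.739 FPKM in siMSI1, with a log2 fold change of 0.70 that did not pass the test (adjusted p = 0.12, limma).

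Of 42 genes of the receptor adaptors and the PI3K-AKT arm, 40 were tested, and limma called 2 higher and 2 lower. Of all tested genes, 5.15% were called higher and 5.83% lower. The median log2 fold change of the list was 0.021. At an unadjusted p under 0.05, 8 were higher and 11 lower (38.3% of all tested genes passed this), and voom called 8 (17.8% of all tested genes). The siMSI1 values lay above all siC values for 10 and below them for 11 (3222 and 3234 of all 15069 tested genes). GRB10, an adaptor that binds IGF1R and the insulin receptor and dampens their signal, was at 4.87, 4.58 and 4.60 FPKM in the siC libraries, against 6.71, 6.15 and 6.62 FPKM in siMSI1 (log2 fold change 0.46, adjusted p = 0.0056, limma). PIK3R3, a regulatory subunit of PI3K, showed a log2 fold change of 0.46 (adjusted p = 0.0081, limma). Both were higher in each siMSI1 library than in any siC library, as were 21.4% of all tested genes. AKT2, a kinase of the arm, was at 11.9, 11.5 and 12.6 FPKM in the siC libraries, against 9.03, 9.01 and 9.63 FPKM in siMSI1 (log2 fold change −0.37, adjusted p = 0.0082, limma). FOXO4, a transcription factor that AKT holds in the cytoplasm, showed a log2 fold change of −0.71 (adjusted p = 0.0078, limma). None of these 4 calls held under all alternatives: GRB10 was called in 8 of 16, PIK3R3 and AKT2 in 7 of 16 and FOXO4 in 6 of 16, with adjusted p-values of at most 0.0403 over them, and without a library only AKT2 and FOXO4 were called, in 1 of 6 omissions each.

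Of 10 genes of the mannose 6-phosphate pathway that IGF2R serves, limma called 0, while 5 had an unadjusted p under 0.05 (3 higher, 2 lower, beside 38.3% of all tested genes) and voom called 2 (17.8% of all tested genes), and the list's median log2 fold change was 0.050. Of 9 genes at the imprinted IGF2 and IGF2R loci, 0 passed the filter, and 3 were at 0 in all libraries.

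**Figure D4:**
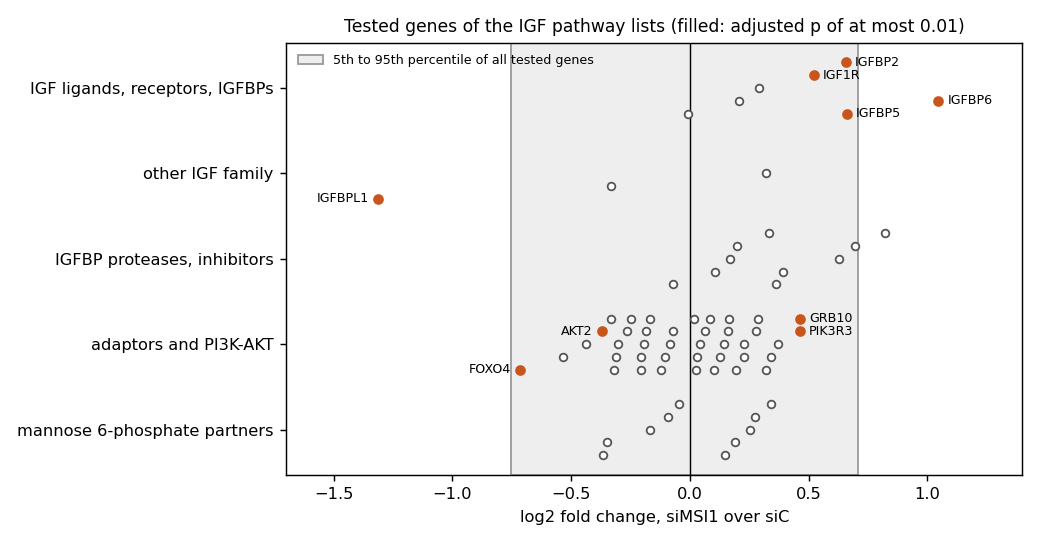
Log2 fold changes of siMSI1 over siC for the tested members and the tested genes of 4 pathway lists, filled where the adjusted p was at most 0.01, with the 5th to 95th percentile of all tested genes shaded (−0.75 to 0.71). IGFBP6 and the protease gene ADAM12, which was not called, lie above this range and IGFBPL1 below it, and the called genes of the adaptor and PI3K-AKT list lie within it.

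The genes whose pattern over the 6 libraries was most like that of IGFBP6, among 7688 tested genes averaging 5 FPKM or more, were ROM1, SPAG7, CAMKV, CAPS and PSMD13. Pearson's r of log2(FPKM + 0.1) was 0.999 for ROM1 and 0.998 for PSMD13, and 61 genes had an r over 0.99. The points share their libraries and the difference between the groups, so that r describes these 6 libraries only. ROM1 was at 13.2, 13.8 and 15.6 FPKM in the siC libraries, against 25.0, 27.9 and 28.4 FPKM in siMSI1, and like IGFBP6 it was highest, in each group, in replicate 3.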

How the data were processed

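Polyadenylated RNA of KNS42 cells was sequenced in 3 siC and 3 siMSI1 libraries, grouped by the labels. The authors deposited 1 table of FPKM values per gene and library, which also holds their log2 fold changes, p-values and false discovery rates. These comparison columns were deposited by the authors and were not used here. The submitters' processing notes name cutadapt 1.14, HISAT2 2.1.0, SAMtools 1.5, featureCounts 1.5.3 and edgeR 3.18.1, with the genome build hg38. Reads were recovered from the deposited FPKM and gene lengths (100% of values whole within 0.01), which gave the depth of each library. The deposited scaling did not follow these reads alone. At the same gene length, the floor of 3 reads stood for 0.1018 FPKM in siMSI1_1 (14379126 reads) and 0.1045 FPKM in siMSI1_3 (14700593 reads).

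limma 3.58.1 (R 4.3.3) was fitted to log2(FPKM + 0.1) of genes averaging 0.5 FPKM or more, using lmFit and then eBayes with a trend and robust moderation, and p-values were adjusted by Benjamini-Hochberg across all genes in the fit, with a threshold of 0.01. The log2 scale with an added value understates changes of genes with low FPKM. The fit was tested on simulated data. Members below the filter had an exact permutation test. All 10 members were named. From each other list, up to 4 called genes per direction with the largest log2 fold change were named, besides IGFBP1, IGFBPL1, IGFALS, INSR, MSI1, genes overlapping a member, and the 5 genes most like the called member with the largest change. The members and lists were chosen with earlier results of these data known.

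The alternatives were an added value of 1 or 0.01, no filter, a mean FPKM of at least 1, centring on the median, quantile normalization, plain variance moderation, voom on the recovered reads, a threshold of 0.05, the replicate number as a block, and leaving out each library. Positions and 3′UTRs came from GENCODE release 44 on GRCh38, where 57392 (98.7%) of the gene identifiers were found. Protein sequences were not analysed here, and 1 of the pathway lists is counted in the totals but not reported here. Tables and exact tests were made in Python 3.11.15 (pandas 2.3.3, numpy 2.4.6) and plots in matplotlib 3.10.9.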

Additional observations from a re-analysis of the deposited data

How the results depend on the processing

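IGFBP6 and IGFBP5 kept their direction and their call under all 16 alternatives, and IGF1R and IGFBP2 under the 10 that used all libraries. Both counts include the threshold of 0.05, at which a call made at 0.01 cannot be lost. The number of called members ranged from 2 to 4 when each library was left out. The number of called pathway genes was 6 of the 78 tested over all lists, beside 11.0% of all tested genes. It was 1 with no filter on low values, 2 with plain variance moderation and 17 with voom. At an adjusted p of 0.05 it was 25, and it was 1 to 5 when each library was left out. For all genes, 1655 calls became 792 with no filter, 847 with plain variance moderation, 2684 with voom, 3787 at an adjusted p of 0.05 and 528 to 1603 without a library, and the cause was not tested. With the replicate number as a block, 4 members, 11 pathway genes and 2250 of all genes were called, but the numbers were not shown to pair the samples: the deviations of libraries with the same number correlated at −0.066, 0.078 and 0.083, and the block changed no call of a member but lost those of IGFBPL1, PIK3R3 and FOXO4. The difference of IGFBP4, −0.0061 as reported, turned to 0.0062 with median centring, 0.0077 with quantile normalization and 0.031 with voom, and ranged from −0.19 to 0.15 without a library, in each case far from a call. IGFBP4 had no value at a mean FPKM of at least 1. Depth limits what can be said of IGF1, IGF2, IGFBP3 and IGFBP4, with at most 39 reads in any library.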
